A study of Mus musculus with 4 samples.

Results

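The p53 pathway target genes are a list of 32 mouse genes: the p53 gene itself, its regulators, and genes that p53 is known to activate. A member was taken as the probe sets whose platform annotation names only that gene, and the probe set with the highest mean over the 4 libraries stood for it. In this way 29 of the 32 members had a probe set on the mouse expression array, among 45101 probe sets in all; Trp53, Fdxr and Gdf15 are not analysed here. Of the 29, 25 had a mean log2 value of at least 4 and were tested among 8892 genes, and 4 lay below that level. The choice of members used no measured value, but it was made with earlier results of these data known, so counts over the list are descriptions.

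The libraries come from BA/F3, an established line of mouse pro-B origin whose growth needs interleukin 3. Title and genotype give 2 libraries of cells that carry the human fusion gene ETV6-RUNX1, also called TEL-AML1, under an inducible system (genotype hsa ETV6-RUNX1 +) and 2 libraries of control cells without it (genotype hsa ETV6-RUNX1 -). Both kinds of cell received 32.5 pM mifepristone, the inducer, for 16 h, and total RNA was then extracted. The labels conflict on the assay too: all 4 titles contain the word ChIP and the design text describes promoter binding, whereas the molecule, the extraction protocol and the series type are those of RNA expression on an array. The values are treated as RNA levels here. The design text calls its controls empty vector lines; whether either line is a single clone is not given in the sources used here.

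The labels disagree for replicate 1. Replicate 1 of the titled ETV6-RUNX1 group is a control in its description field, and replicate 1 of the titled control group is there a TEL-AML1 expression library. For replicate 2 both labels give one condition. Every comparison was therefore made in 2 ways, by title and by description. Below, values for the 2 libraries described as control are given in the order ETV6-RUNX1-titled replicate 1, control-titled replicate 2, and values for the 2 described as fusion-expressing in the order control-titled replicate 1, ETV6-RUNX1-titled replicate 2. All levels are GCRMA log2 values, differences are fusion minus control on that scale, and levels of different genes are not compared, because probe sets differ in how they respond.

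The p53 protein is a transcription factor that is held at a low level by Mdm2 and Mdm4 and is released by DNA damage, nucleolar stress and other insults. It then binds response elements made of paired half-sites near its targets, among them Cdkn1a, which stops the cell cycle, Fas, which leads to cell death, and Mdm2, which closes a negative feedback loop. Several of these genes also respond to other regulators, such as the FOXO factors for Ccng2 and growth factor withdrawal for Tob1, and p53 itself is controlled mainly at the protein level.

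The promoter windows of members are shown because the values below fall into genes with and without a p53 element close to the annotated start. The sequences are from RefSeq on GRCm38.p6 and cover the 250 bases before the start, 5′ to 3′ on the gene's strand. Capitals mark a p53 half-site without mismatch, or a full site, which is a pair of half-sites with no spacer and at most 1 mismatch. Cdkn1a is shown at its upstream start and Ccng1 at its only listed start, as the 2 members with a full site. Ppm1d stands for members with a single half-site and Ccng2 for members with none.
Cdkn1a, chr17:29090729-29090978, strand +: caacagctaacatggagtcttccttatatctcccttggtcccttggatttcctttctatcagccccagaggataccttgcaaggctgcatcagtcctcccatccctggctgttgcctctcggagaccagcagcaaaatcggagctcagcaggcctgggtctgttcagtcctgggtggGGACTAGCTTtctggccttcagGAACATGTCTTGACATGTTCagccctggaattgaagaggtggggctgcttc
Ccng1, chr11:40755287-40755536, strand -: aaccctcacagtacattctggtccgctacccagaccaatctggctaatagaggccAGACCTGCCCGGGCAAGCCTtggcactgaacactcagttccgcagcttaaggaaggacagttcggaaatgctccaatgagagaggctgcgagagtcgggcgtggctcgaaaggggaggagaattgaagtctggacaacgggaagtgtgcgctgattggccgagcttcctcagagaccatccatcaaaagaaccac
Ppm1d, chr11:85311004-85311253, strand +: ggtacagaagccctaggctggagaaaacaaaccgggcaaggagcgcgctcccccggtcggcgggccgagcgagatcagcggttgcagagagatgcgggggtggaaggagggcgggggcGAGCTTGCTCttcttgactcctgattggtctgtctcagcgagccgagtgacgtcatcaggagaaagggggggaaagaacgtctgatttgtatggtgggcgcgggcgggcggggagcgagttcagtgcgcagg
Ccng2, chr5:93267323-93267572, strand +: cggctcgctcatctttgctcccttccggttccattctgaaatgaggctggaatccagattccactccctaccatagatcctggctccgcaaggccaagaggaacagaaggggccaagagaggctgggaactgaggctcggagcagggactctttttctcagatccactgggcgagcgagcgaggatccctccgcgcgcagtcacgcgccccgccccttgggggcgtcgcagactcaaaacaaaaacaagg

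The table of promoters had no entry for Zmat3, Trp53inp1, Perp, Tnfrsf10b, Rrm2b, Xpc and Ddb2, so their promoters were not searched. It had entries for 25 of the 32 members, with 31 starts. The full site, read on both strands, occurred in 2 of these 31 windows and in 25 of 32851 windows of the same length over all genes, 0.0761%. In Cdkn1a it reads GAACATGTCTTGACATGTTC, from 51 to 32 bases before a start that lies 2790 bases upstream of the other listed start. In Ccng1 it reads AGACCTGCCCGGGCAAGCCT, from 195 to 176 bases before the start. A half-site, which can be part of a full site, occurred in 11 of the 31 member windows, each of a different gene, and in 7.13% of all windows. The 11 genes were Aen, Ccng1, Cdkn1a, Ei24, Gadd45a, Mdm2, Pml, Polk, Ppm1d, Sesn1 and Trp53. The FOXO heptamer GTAAACA, searched on both strands, was found before Mdm2 and Pml, in the latter overlapping the half-site, and in 3.17% of all windows. The E-box CACGTG was found before Aen, Fas and Gdf15, and in 6.02% of all windows. The list was drawn up as p53 targets, so the half-sites are no separate finding, and elements outside these windows were not searched.

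In the title comparison the members showed no shared direction. Of the 25 tested members, 9 had a positive difference (36.0%, against 46.2% of all tested genes) and 16 a negative one, with a median of -0.15 beside -0.02 over all tested genes. No member passed an adjusted p of 0.05 in limma, as did 0% of all 17720 tested probe sets, and 0 members had an unadjusted p under 0.05, against 0.0787% of tested genes higher and 0.146% lower. The titled groups did not overlap in 1 member with higher and 1 with lower values, against 3.96% and 5.71% of tested genes. In 20 of 25 members the difference was smaller than its standard error. The sign count depends on single libraries: it became 16 of 25 without ETV6-RUNX1-titled replicate 1 or without control-titled replicate 1, 3 without control-titled replicate 2 and 4 without ETV6-RUNX1-titled replicate 2.

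By description, most members lay higher in the libraries called fusion-expressing, without any of them passing the test. The difference was positive in 21 of 25 tested members (84.0%), against 51.5% of all tested genes, with a median of 0.48 beside 0.01. The 2 groups did not overlap in 15 members with higher and 1 with lower values, against 30.3% and 25.6% of all tested genes. At least 2-fold higher were 8 members, against 6.62%, and at least 2-fold lower were 0, against 3.85%. An adjusted p of 0.05 in limma was passed by 0 of 25 members and 0% of tested genes; among all probe sets 2 passed, which is 0.0113%, and 19.7% had an unadjusted p under 0.05. At an unadjusted p under 0.05 there were 9 members, all higher, against 13.6% of tested genes higher and 9.76% lower. Adjusted p-values of the members ran from 0.13 to 0.91. Without any 1 library the positive count stayed at 20 or 21 of 25.

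**Figure D1:**
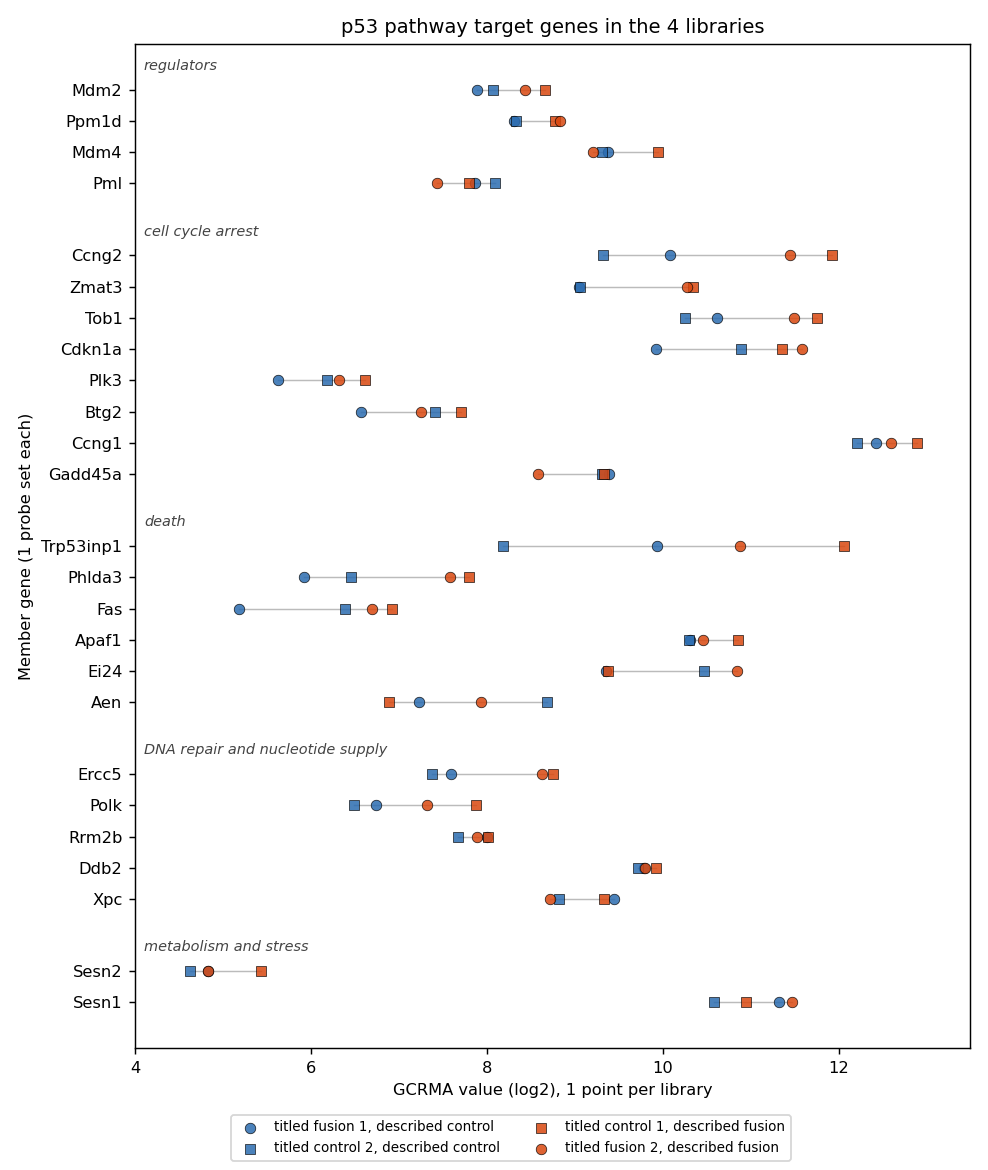
GCRMA log2 value (x axis) of each of the 25 tested members (y axis, sorted by role and by the description difference) in each of the 4 libraries; circles are titled ETV6-RUNX1, squares titled control, blue described as control and orange described as fusion-expressing, with no averaging. Colours separate in 16 members, 15 with orange to the right and Pml with orange to the left, while circles and squares separate only in Btg2 and Sesn1.

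**Figure D2:**
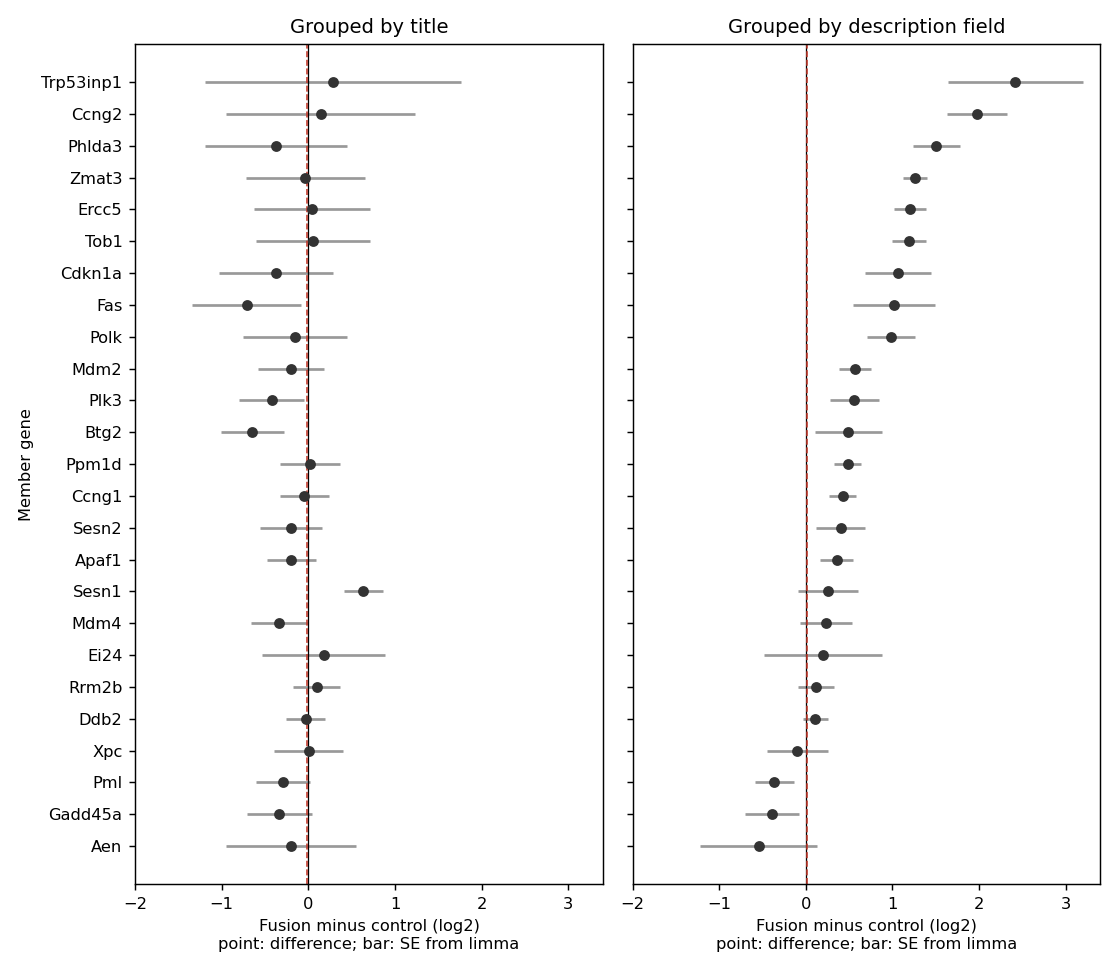
Fusion minus control difference (log2, point) with its limma standard error (bar) for the 25 tested members, grouped by title (left) and by description field (right), n = 2 libraries per group; the dashed line is the median of all 8892 tested genes. By title the points lie between -0.71 and 0.63, and by description between -0.55 and 2.42, with 21 above 0.

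Some facts of the whole series bear on these counts. Each library had 17517 to 17688 probe sets at 4 or more, and the shared lowest value, 2.23, marks background. BA/F3 genes were present, with Csf2rb, Il3ra and Ptprc tested. The B lineage genes were divided. Ebf1, Pax5, Vpreb1, Il7r and Rag1 were within 0.5 of that floor in all 4 libraries. Cd79b was tested and read 8.31 and 8.62 in described control against 8.81 and 8.44 in described fusion libraries. Cd79a was not tested and read 2.69 and 2.89 against 2.89 and 4.47. Of 10 mast cell and basophil markers 6 were tested and 5 of those were higher by description, among them Fcer1a, the IgE receptor alpha chain, at 2.37 and 2.32 in described control against 9.91 and 7.69 in described fusion libraries. Hdc, the histidine decarboxylase, read 3.70 and 5.09 against 8.16 and 7.84, and the chymase Cma1 6.27 and 2.23 against 11.39 and 7.99. Cd200r3 went the other way and had the smallest p-value of the list, with 5.75 and 6.06 against 3.87 and 3.87 (difference -2.03, SE 0.20, limma adjusted p = 0.12). Kit and Tpsb2 were within 0.5 of the floor. The log2 of the markers' summed level was 12.6 to 12.8 in described control and 12.6 to 13.8 in described fusion libraries; this sum is mostly Gata2, which read 12.71 and 12.60 against 13.26 and 12.44, with overlapping groups. Of 11 neutrophil and macrophage markers 4 were tested and 1 was higher, with summed levels of 6.94 to 9.41 against 7.75 to 8.23. Of 6 erythroid and megakaryocyte markers 3 were tested, 2 of them higher, with summed levels of 9.54 and 10.7 against 9.51 and 10.6 and with Hba-a1 and Pf4 within 0.5 of the floor. Klf1, an erythroid transcription factor, read 7.39 and 8.80 against 5.93 and 5.52 (difference -2.37, SE 0.56, limma adjusted p = 0.17). All 4 T cell and all 6 stromal markers with a probe set were within 0.5 of the floor. The labelling spike dap had a 3' minus 5' difference of 3.10 and 3.19 in described control and of 3.71 and 4.43 in described fusion libraries. For the cells' own transcripts the described groups overlapped in this measure. Beta-actin gave 0.70 and 0.63 against 0.64 and 0.63, and Gapdh gave -0.31 and -0.37 against -0.30 and -0.34. The part of these values in the members' differences was not tested.

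Among the regulators, the negative feedback genes Mdm2 and Ppm1d lay higher in both libraries described as fusion-expressing at their brightest probe sets. Mdm2 encodes the ubiquitin ligase that degrades p53. It read 7.89 and 8.07 in the libraries described as control and 8.66 and 8.44 in those described as fusion-expressing, a difference of 0.57 (SE 0.19, limma adjusted p = 0.23). Its dimmer tested probe set differed by 0.29 (SE 0.27), and there the described groups overlapped, at 6.23 and 6.07 against 6.73 and 6.15. Ppm1d, the phosphatase Wip1 that switches off p53 and its upstream kinases, read 8.30 and 8.33 against 8.77 and 8.83. The described groups were thus tight and apart, with means of 8.32 ± 0.02 (SD, n = 2) and 8.80 ± 0.04, a difference of 0.48 (SE 0.16, adjusted p = 0.23), and the dimmer Ppm1d probe set differed by 0.43 (SE 0.21). By title the brighter probe sets of Mdm2 and Ppm1d differed by -0.20 (SE 0.38) and 0.01 (SE 0.35).

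Mdm4, an inhibitor of p53 that lacks the degrading activity of Mdm2, read 9.38 and 9.31 against 9.95 and 9.21. At this probe set only control-titled replicate 1 stood above the others, and the groups overlapped in both groupings (difference by description 0.23, SE 0.30). The dimmer tested Mdm4 probe set read 7.27 and 7.03 in ETV6-RUNX1-titled against 7.65 and 7.33 in control-titled libraries. There the titled groups did not overlap (difference -0.34, SE 0.28), and the description difference was 0.04 (SE 0.28). Pml, the scaffold of nuclear bodies that bring p53 and its modifying enzymes together, was the only member whose described groups did not overlap with lower values in fusion. Its brightest probe set read 7.87 and 8.09 against 7.80 and 7.43, and in limma the description difference was -0.36 (SE 0.23, adjusted p = 0.45). The dimmer tested Pml probe set followed the title instead, with 7.49 and 7.46 in ETV6-RUNX1-titled and 7.66 and 7.82 in control-titled libraries. Its titled groups were apart (title difference -0.26, SE 0.25), while its described groups overlapped (description difference -0.09, SE 0.22).

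Of the 8 tested cell cycle arrest genes 7 had a positive difference by description, with a median of 0.81. Zmat3, a zinc finger RNA-binding protein induced by p53, had the smallest p-value of all members. It read 9.05 and 9.05 in the libraries described as control and 10.34 and 10.27 in those described as fusion-expressing. The pairs were almost identical, with means of 9.05 ± 0.01 and 10.31 ± 0.05 (SD, n = 2), and the difference was 1.26 (SE 0.14, limma adjusted p = 0.13), or 2.39-fold. By title the same values gave -0.04 (SE 0.69). The description split carried 99.9% of the variance of Zmat3 over the 4 libraries.

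Cdkn1a encodes p21, the inhibitor of cyclin-dependent kinases and the best known p53 target. It read 9.92 and 10.90 against 11.36 and 11.58. ETV6-RUNX1-titled replicate 1 was the lowest, and both libraries described as fusion-expressing were above both described as control. The difference was 1.06 (SE 0.38, adjusted p = 0.26), and the other probe set, at a lower level, differed by 0.88 (SE 0.42). The title difference of the 2 probe sets was -0.37 (SE 0.66) and -0.46 (SE 0.59).

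Ccng1 and Ccng2 encode atypical cyclins; Ccng1 is a direct p53 target that acts with a phosphatase on Mdm2, and Ccng2 restrains the cell cycle and is also under FOXO control. Ccng1 read 12.43 and 12.21 against 12.90 and 12.59, a difference of 0.42 (SE 0.16, adjusted p = 0.27), and its other 2 probe sets differed by 0.31 (SE 0.20) and 0.41 (SE 0.27). Ccng2 read 10.08 and 9.33 against 11.92 and 11.45, a difference of 1.98 (SE 0.34, adjusted p = 0.15), or 3.94-fold. Both libraries of Ccng2 described as fusion-expressing were above both described as control. The dimmer Ccng2 probe set gave 1.58 (SE 0.50). The promoter window printed above for Ccng2 held none of the motifs searched, and that of Ccng1 held a full site.

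Tob1 and Btg2 belong to the family of antiproliferative proteins that recruit the deadenylase complex to messenger RNA. Tob1 read 10.62 and 10.25 against 11.76 and 11.50, a difference of 1.19 (SE 0.20, adjusted p = 0.14). The other Tob1 probe set was at the floor of 2.23 in all 4 libraries. Btg2 read 6.57 and 7.41 against 7.71 and 7.25. In Btg2 only ETV6-RUNX1-titled replicate 1 stood apart, below the other 3, so that the described groups overlapped while the titled groups did not. The title difference of Btg2 was -0.65 (SE 0.36, adjusted p = 1) and the description difference 0.49 (SE 0.39).

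Plk3, a stress kinase, read 5.63 and 6.18 against 6.61 and 6.32, a difference of 0.56 (SE 0.28, adjusted p = 0.37). Gadd45a, which binds p21 and stress kinases, read 9.39 and 9.31 against 9.34 and 8.58, a difference of -0.39 (SE 0.31). In Gadd45a only ETV6-RUNX1-titled replicate 2 stood apart, below the others. Plk2, a related kinase, was at the floor of 2.23 in all 4 libraries at both of its probe sets.

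Among genes of the death and damage response programme, Trp53inp1 had the largest difference by description of the tested members. It encodes a p53-induced nuclear protein that promotes death and autophagy. The values were 9.93 and 8.18 against 12.07 and 10.88, with control-titled replicate 2 lowest and control-titled replicate 1 highest. The difference was 2.42 (SE 0.78, adjusted p = 0.23), or 5.34-fold, and by title 0.28 (SE 1.48). The described groups of Trp53inp1 did not overlap, but the libraries within each were far apart. Its other probe set was at the floor of 2.23 in all 4 libraries.

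Phlda3, which blocks Akt at the membrane, read 5.92 and 6.46 against 7.80 and 7.59, a difference of 1.51 (SE 0.27, adjusted p = 0.15), or 2.84-fold. Fas, a death receptor, read 5.18 and 6.38 against 6.92 and 6.69. The Fas difference was 1.02 (SE 0.47, adjusted p = 0.34) and lay mostly in replicate 1, at 1.73 within that pair and 0.31 within replicate 2. Apaf1, the core of the apoptosome, read 10.31 and 10.30 against 10.86 and 10.46, a difference of 0.35 (SE 0.19, adjusted p = 0.39). The dimmer tested Apaf1 probe set had a mean of 4.08, close to the filter. It read 3.69 and 4.20 against 4.20 and 4.22, with overlapping described groups (difference 0.26, SE 0.24).

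Ei24 and Aen followed the replicate number rather than either label. Ei24, a membrane protein of the endoplasmic reticulum, read 9.35 in ETV6-RUNX1-titled and 9.38 in control-titled replicate 1, and 10.84 and 10.47 in replicate 2. Aen, an exonuclease that digests DNA in dying cells, read 7.22 and 6.88 in replicate 1 and 7.94 and 8.69 in replicate 2, in the same order of titles. Their replicate 2 minus replicate 1 differences were 1.29 and 1.26, and their description differences 0.20 (SE 0.68) and -0.55 (SE 0.68). The array's 18S ribosomal RNA 5' probe set also differed by replicate number, with 13.3 and 12.6 in replicate 1 and 11.7 and 11.1 in replicate 2, and its part was not tested. Dram1, a lysosomal regulator of autophagy, and Perp, a junction protein linked to apoptosis, were at the floor in all 4 libraries. The death receptor gene Tnfrsf10b read 3.11 to 3.30 and was not tested, since its mean of 3.16 was under the filter.

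The DNA repair members divided. Ercc5, the nuclease that cuts 3' of a damaged stretch, read 7.59 and 7.38 against 8.76 and 8.63. Its described groups were tight, and the difference was 1.20 (SE 0.18, limma adjusted p = 0.14), or 2.30-fold. The other Ercc5 probe set was at the floor of 2.23 in all 4 libraries. Polk, a polymerase that copies past lesions, read 6.74 and 6.49 against 7.88 and 7.32, a difference of 0.98 (SE 0.28, adjusted p = 0.21).

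Xpc and Ddb2, which recognise damage at the start of nucleotide excision repair and are p53 targets as well, differed less. Xpc read 9.44 and 8.82 against 9.34 and 8.72, so that replicate 1 was above replicate 2 under both titles (difference by description -0.10, SE 0.35). Ddb2 stayed between 9.72 and 9.93 in all libraries (difference 0.11, SE 0.14). Rrm2b, the p53-induced ribonucleotide reductase subunit, read 7.68 to 8.02 and differed by 0.12 (SE 0.21). Its 4 tested probe sets did not agree, since 2 dimmer ones read highest in ETV6-RUNX1-titled replicate 1 and differed by 0.95 (SE 0.35) and 0.66 (SE 0.38) by title.

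The sestrins Sesn1 and Sesn2, which restrain mTORC1 when amino acids are scarce or cells are stressed, did not share a pattern. Sesn1 read 11.33 and 11.48 in the libraries titled ETV6-RUNX1 and 10.95 and 10.59 in those titled control. The titled groups of Sesn1 did not overlap, with a difference of 0.63 (SE 0.23, limma adjusted p = 1), and its other 2 tested probe sets differed by 0.34 (SE 0.31) and 0.42 (SE 0.33). Of the tested members, Sesn1 alone was higher in ETV6-RUNX1-titled than control-titled libraries within both replicate numbers, by 0.38 and 0.89 at its brightest probe set. That does not hold for its next probe set, which read 9.14 and 9.46 in ETV6-RUNX1-titled and 9.19 and 8.72 in control-titled libraries and whose described groups did not overlap (difference by description 0.39, SE 0.23). Sesn2 read 4.83 and 4.63 against 5.44 and 4.83, a difference of 0.40 by description (SE 0.28), and its other tested probe set one of -0.05 (SE 0.17).

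Within replicate numbers, the difference by title ran in opposite directions for 22 of the 25 tested members. It did so for most of all tested genes as well, with the shares by direction given next. Taken as described, the difference was positive in both pairs for 18 members (40.4% of all tested genes) and negative in both for 4, Gadd45a, Aen, Xpc and Pml (36.4% of all tested genes). In the replicate 2 pair alone, for which title and description agree, 19 of 25 members were higher in the fusion library, against 50% of all tested genes, with a median of 0.37 beside 0.00. There 6 members were at least 2-fold higher, Trp53inp1 at 2.70, Ccng2 at 2.12, Ercc5 at 1.25, Tob1 at 1.24, Zmat3 at 1.22 and Phlda3 at 1.13, against 7.4% of tested genes. That pair is 1 library against 1, so these values have no replicate check, and both libraries are also part of the description comparison. In the replicate 1 pair 20 members were higher in the control-titled library, against 53.2% of tested genes, with a median of 0.60 beside 0.03.

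**Figure D3:**
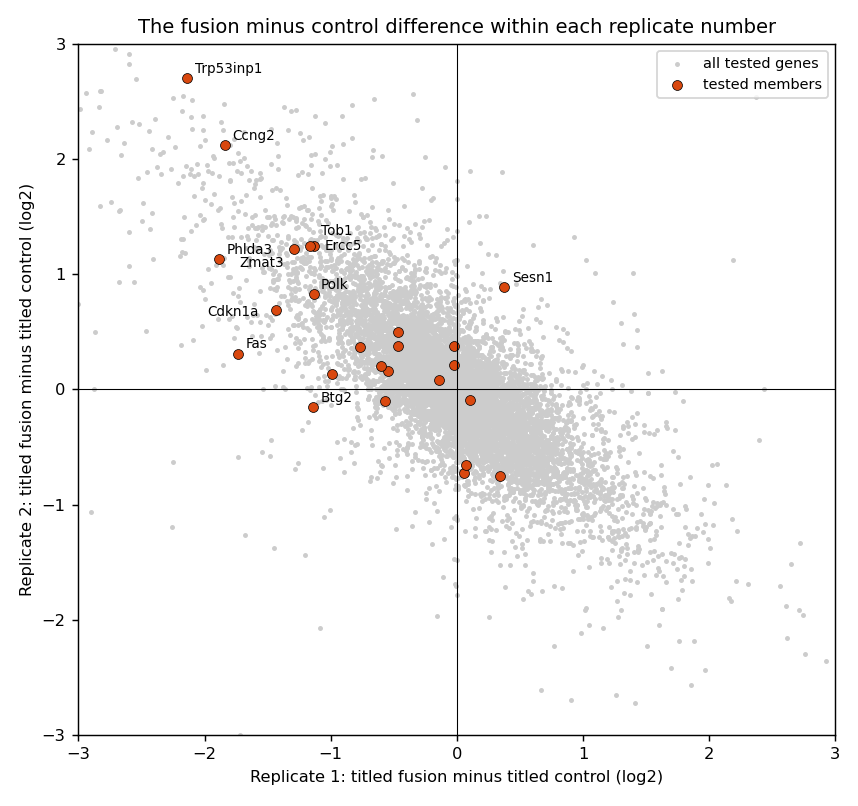
Difference titled fusion minus titled control (log2) within replicate 1 (x axis) and within replicate 2 (y axis), 1 library against 1 in each; grey points are all tested genes, of which 110 lie outside the axes, and orange points the 25 tested members. Most members lie at the upper left, led by Trp53inp1 and Ccng2, and Sesn1 lies alone in the upper right.

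Library by library, the members were highest in control-titled replicate 1. That library was above the mean of the gene in 21 of 25 members, against 51.1% of all tested genes. ETV6-RUNX1-titled replicate 2 was above it in 17 (52.6%), control-titled replicate 2 in 6 (50.5%) and ETV6-RUNX1-titled replicate 1 in 5 (43.8%). Control-titled replicate 1 held the highest value of 17 members, against 30% of all tested genes, and it was above ETV6-RUNX1-titled replicate 2 in 20, against 47.5%. The description split was the largest of the 3 ways to pair the libraries in 17 of 25 members, against 56.8% of all tested genes. The 17 include Sesn2, whose description and replicate splits tie at 44.5% of its variance each. The replicate number was the largest in 6, against 31.8%, and the title in 2, Btg2 and Sesn1, against 11.2%. Over 90% of the variance lay along the description split in 6 members, Zmat3, Ppm1d, Ercc5, Tob1, Phlda3 and Ccng2, against 15.8% of all tested genes.

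Of the 13 members with 2 or more tested probe sets, the probe sets had the same sign by description in 11, all but Rrm2b and Sesn2. By title they did in 9, with Ccng2 and Ppm1d as further exceptions. Probe sets of 1 gene share the same RNA and are not replicates. The brightest probe sets of Mdm4, Ddb2 and Sesn1 are of the array's type that can match more than 1 transcript.

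The 5 tested genes whose values followed Zmat3 most closely over the 4 libraries were Pacs1, Lat, Cdk5rap2, B4gat1 and Snx25. Their Euclidean distances from Zmat3, after each gene was centred on its mean, were 0.04 to 0.09 log2 units. None of the 5 is a member.

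Other p53 target genes, listed apart from the members, were mixed in direction. Of 41 genes 27 were tested. By description 18 had a positive and 9 a negative difference (66.7% positive, against 51.5% of all tested genes). The median was 0.24 beside 0.01 over all tested genes, and 0 passed the adjusted threshold in limma. At an unadjusted limma p under 0.05 there were 8 higher and 3 lower genes, against 13.6% of tested genes higher and 9.76% lower. The 3 lower genes, named after their values were seen, were Tigar at -1.07 (SE 0.33), Sco2 at -0.78 (SE 0.23) and Bid at -0.51 (SE 0.16). Trp53inp2, an autophagy cofactor related to Trp53inp1, read 10.30 and 10.58 against 12.17 and 12.01, a difference of 1.65 (SE 0.16, adjusted p = 0.12). Ptp4a3, a phosphatase, differed by 1.42 (SE 0.16), Ddit4, an mTORC1 inhibitor, by 1.51 (SE 0.25), and Gtse1, a microtubule protein that also lowers p53, by 0.72 (SE 0.16). By title Pcna and Ninj1 had the smallest p-values of this list, at -0.12 (SE 0.11) and 0.34 (SE 0.40).

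The upstream regulators and cofactors of p53 were divided in direction. Of 26 listed genes 21 were tested, 12 with a positive difference by description (57.1%, against 51.5% of all tested genes). The median was 0.16. In limma 0 passed, and 4 higher and 1 lower had an unadjusted p under 0.05, against 13.6% and 9.76% of tested genes. Hipk2 and Chek2, kinases that phosphorylate p53, differed by 1.22 (SE 0.24, adjusted p = 0.16) and 1.21 (SE 0.26, adjusted p = 0.17). Ppp1r13b, a p53 cofactor, differed by 0.87 (SE 0.16), and Npm1, a nucleolar protein that binds Mdm2, by -0.55 (SE 0.07). By title Sirt1, a deacetylase that acts on p53, differed by -0.21 (SE 0.25) and Trp53bp2 by -0.18 (SE 0.28). Cdkn2a, which encodes the Mdm2 inhibitor Arf, was at 2.23 in all 4 libraries.

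Cell cycle genes that are known to be lowered through p21 and the DREAM complex had a median difference of 0.05 by description. All 28 with a probe set were tested, and 17 had a positive difference (60.7%, against 51.5% of all tested genes). In limma 0 passed, and 3 higher and 1 lower had an unadjusted p under 0.05, against 13.6% and 9.76% of tested genes. The replication helicase genes Mcm7 and Mcm3 differed by 0.39 (SE 0.07) and -0.33 (SE 0.08), the DNA repair gene Fancd2 by 0.92 (SE 0.20), and Cdc20, an activator of the anaphase-promoting complex, by 0.28 (SE 0.08). By title Mcm6 differed by 0.19 (SE 0.10) and Bub1 by -0.20 (SE 0.22).

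**Figure D4:**
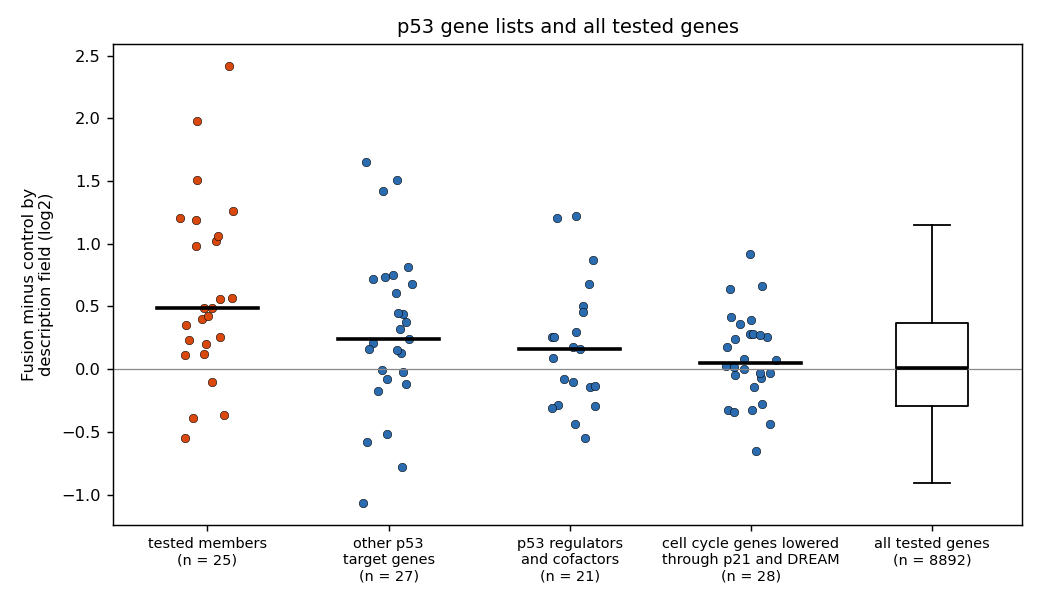
Fusion minus control difference by description field (log2) of each tested gene in 4 lists (points; bar, median) and over all 8892 tested genes (box, quartiles and median; whiskers, 5th and 95th percentile at -0.91 and 1.15). The medians are 0.48 for the members, 0.24 for other p53 targets, 0.16 for regulators and 0.05 for the cell cycle genes, and the members reach 2.42.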

How the data were processed

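The values are from a mouse 3' expression array of 4 libraries and were treated as RNA levels, as the labels' molecule and protocols give them, although the titles name ChIP. The authors deposited log2 values, and the submitters' processing notes name GCRMA 2.28.0. The log2 scale was read from the values. No source used here gives filters, scan dates or batches. GCRMA pulls dim probe sets to a shared floor, which compresses differences there. Control probe sets (64) were left out, and the test covered the 17720 probe sets with a mean of 4 or more. Of all probe sets 34958 had 1 symbol, 932 several and 9211 none.

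The title and description comparisons used lmFit and trended eBayes of limma 3.58.1 (R 4.3.3). Tests were two-sided, and Benjamini-Hochberg adjustment ran over every probe set tested, with a threshold of 0.05. Each fit had 2 libraries per group and 2 residual degrees of freedom. The code was tested on simulated data. The design text names 2 independent replicates and gives no pairing. No source used here says whether these were separate cultures, so p-values measure only the spread between these libraries, and their number limits the precision. In bulk RNA, fewer cells of a type and less RNA per cell cannot be told apart. All members could be named. From each other list the 4 genes with the smallest p by description and the 2 by title were named. Cdkn2a, Tigar, Sco2, Bid and the marker genes were added after their values were seen. Members and lists were chosen with earlier results of these data known.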

Additional observations from a re-analysis of the deposited data

How the results depend on the processing

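No member passed the threshold in either grouping under any alternative run; by description the lowest adjusted p of a member lay between 0.059 and 0.48 over the alternatives, and at an unadjusted p under 0.05 there were 5 to 11 members. Over all probe sets, the 2 that passed by description became 14 with quantile normalization and 10 with array median centring; without the filter 0 passed (lowest adjusted p = 0.10; 3626 at an unadjusted p under 0.05). With any 1 library left out 0 passed (lowest adjusted p 0.34 to 0.48; 1764 to 2524 unadjusted). By title 0 probe sets passed throughout, with 31 to 448 unadjusted.

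With the replicate number as a block 0 probe sets passed by title and 0 by description. By description the lowest limma adjusted p was 0.059, and 5579 probe sets had an unadjusted p under 0.05. Each replicate number holds 1 library of each group in both groupings, so this block cannot change a member's difference or its sign. The labels tie the numbers to no shared culture, day or batch. The deviations of the 2 replicate 1 libraries from their group means correlated at -0.20 by title and 0.59 by description over 17720 probe sets, and the block raised the unadjusted count by description from 3494; with 2 pairs this does not settle whether the numbers pair the libraries. With the numbers crossed in the title comparison, an alternative added after seeing the data, 0 passed (70 unadjusted).

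With 1 library left out, which leaves a group of 1 assumed to vary like the other, the count of positive members ranged from 3 to 16 by title and from 20 to 21 by description. The median difference ranged from -0.60 to 0.20 by title and from 0.46 to 0.68 by description. The members whose description difference then turned sign were Ei24, Xpc, Mdm4, Sesn1, Rrm2b and Aen; with the mean of a gene's probe sets Rrm2b did. By title, 7 to 9 members turned sign with each library left out, Xpc did with quantile normalization, and Ccng2 and Ppm1d did with the mean of a gene's probe sets. The cause was not tested. A count of probe sets was not formed for that last alternative, which works on genes. Signal at the floor in all 4 libraries limits Perp, Plk2 and Dram1, for which no difference could be measured. Low signal also limits Tnfrsf10b, which had a mean of 3.16, under the filter, and was not tested.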
